A study of Arabidopsis thaliana with 4 samples.

Results

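The introns described here were those of Arabidopsis genes that the deposited intron score table lists with a single intron. They were the introns whose gene occurs once in that table and whose length was under 500 bases, and they numbered 3349 of the 79373 introns listed. Each belonged to its own gene, of 15648 genes in the table. The table gives each intron a score in 4 columns, and that score was found to be a scaled read coverage. The introns were set beside 72980 introns of the same length range from genes listed with 2 or more introns. The mutant samples were whole 7-day-old seedlings of Arabidopsis thaliana labelled MAC3B Q77A/D81A-GFP, with 2 libraries (replicates 1 and 3), and the wild-type samples were Col-0 seedlings of the same age, with 2 libraries (replicates 1 and 2). Both genotypes grew untreated on Murashige-Skoog plates that held sucrose, and polyA mRNA was sequenced. The mutant line carries a GFP-tagged MAC3B with both substitutions named in its label. Neither the background that carries the transgene nor a line with unmutated MAC3B-GFP is given in the labels, so effects of the substitutions and of the added transgene cannot be told apart.

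MAC3B is an E3 ubiquitin ligase with a U-box, the Arabidopsis relative of yeast Prp19, and belongs to the MOS4-associated complex that acts together with the spliceosome. The spliceosome recognises a 5′ splice site that nearly always begins with GT, a branch point, and a 3′ splice site that ends with AG, and it joins the exons on either side. Plant introns are short and rich in A and T, and an intron left in the polyadenylated RNA, called intron retention, is a common form of alternative splicing in plants. A gene with a single intron has a single removal step, so coverage in its intron comes from RNA on which that step has not taken place or from other RNA of the same place.

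Coordinates are those of the deposited tables (TAIR10), and the sequences were read at these coordinates from the RefSeq copy of the genome (TAIR10.1) and are given 5′ to 3′ on the strand of the gene. Of the 3348 introns that could be read there, 3001 (89.6%) ran from GT to AG and 22 from GC to AG, and 325 had other ends. Among introns of genes with 2 or more listed, 97.0% ran from GT to AG. Other ends were frequent among very short entries, though 198 of the 325 belonged to introns of at least 60 bases. Of 207 introns under 60 bases, 38.2% had GT-AG or GC-AG ends. In particular, 77 entries lay in tRNA genes, 69 for tyrosine and 8 for methionine, with lengths of 6 to 16 bases, and 2 of the 77 had a score above 0. Introns of tRNA genes are removed by an endonuclease and not by the spliceosome. Without the entries under 60 bases, 93.0% ran from GT to AG. Among 194 introns of noncoding transcripts 18.6% had GT-AG or GC-AG ends, and among 99 that are not in the RefSeq annotation 13.1% did.

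In base content and in the letters of the 5′ splice site the introns stood close to those of other genes. A 5′ splice site of GTAAGT was found at the start of 9.44% of single-intron genes' introns and of 9.31% of the others, and GTATGT at the start of 3.61% and 4.59%. Their content of G and C was 30.4%, against 32.2% in the others, and their median length was 120 bases, against 97 bases. In the RefSeq annotation 2626 of the 3348 (78.4%) were the only intron of their gene over all its transcripts, and 97.1% were annotated with the same ends. GRP7, GRP8, LHCB2.1, AT1G63530 and AT5G54940, described below, are among the genes with more than 1 annotated intron. For such genes a single removal step cannot be assumed. The place was coding sequence for 2595, the 5′ untranslated part for 255, the 3′ untranslated part for 90 and a noncoding transcript for 194. None of the 15648 listed genes overlapped the span of another gene in the annotation that the counts used, whereas 10113 of all 32833 counted genes did. In the RefSeq annotation 26 of the introns overlapped an exon of another gene.

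A choice of introns that the results below turn on is printed here, with the 6 bases of the 5′ splice site and the last 3 bases of the intron in capitals. The highest scores belonged to GRP7 and GRP8, a pair of glycine-rich RNA-binding proteins under clock control that bind their own and each other's transcripts, where an alternative 5′ splice site inside the intron is used. The GRP7 intron (chr2:9265894-9266202, minus strand, 309 bases) is shown by its first and last 30 bases and the GRP8 intron (chr4:18274568-18274850, minus strand, named CCR1 in RefSeq) in full.
GRP7 first 30: GTCTGTtacacgccgagatcggactccgag
GRP7 last 30: gatctggtttttgtattatttggataaCAG
GRP8: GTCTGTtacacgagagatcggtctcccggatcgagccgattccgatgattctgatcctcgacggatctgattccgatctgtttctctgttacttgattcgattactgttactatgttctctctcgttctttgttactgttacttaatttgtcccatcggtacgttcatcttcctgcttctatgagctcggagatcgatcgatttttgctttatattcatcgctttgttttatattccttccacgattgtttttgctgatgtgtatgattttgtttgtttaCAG
Both start with GTCTGT, which began 6 of the 3348 introns (0.179%) and 0.492% of the others. The longest run shared by the pair was 28 bases, from base 74 of the GRP7 intron and base 79 of the GRP8 intron: tgtttctctgttacttgattcgattact.

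The next introns are those of AT2G15880, a leucine-rich repeat family protein (chr2:6920171-6920267, minus strand), of AT1G55990, a glycine-rich protein (chr1:20942615-20942659, minus strand), of LHCB2.1, a light-harvesting protein of photosystem II (chr2:1824101-1824185, minus strand), of IAA2, an auxin-inducible repressor of auxin responses (chr3:8181421-8181512, minus strand), of LBD39, a LOB-domain protein (chr4:17640188-17640325, minus strand), and of AT1G63530, an uncharacterized protein (chr1:23564576-23564658, plus strand). All lie in coding sequence.
AT2G15880: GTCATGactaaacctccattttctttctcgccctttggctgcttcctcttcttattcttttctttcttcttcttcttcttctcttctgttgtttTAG
AT1G55990: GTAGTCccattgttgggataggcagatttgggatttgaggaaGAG
LHCB2.1: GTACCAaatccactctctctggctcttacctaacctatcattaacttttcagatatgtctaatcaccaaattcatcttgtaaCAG
IAA2: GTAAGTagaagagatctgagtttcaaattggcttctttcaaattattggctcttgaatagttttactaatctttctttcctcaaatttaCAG
LBD39: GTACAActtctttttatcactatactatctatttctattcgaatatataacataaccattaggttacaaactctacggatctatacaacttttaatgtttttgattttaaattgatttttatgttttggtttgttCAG
AT1G63530: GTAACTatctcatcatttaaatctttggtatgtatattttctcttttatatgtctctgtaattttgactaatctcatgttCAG
The AT2G15880 intron is dominated by runs of C and T on the transcript strand. The AT1G55990 entry is 45 bases long and ends with GAG, and the IAA2 intron has the GTAAGT start.

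The labels were checked first. MAC3B had 27890 and 28762 counts in the mutant libraries, against 3604 and 3874 in the wild-type libraries (log2 fold change 2.72, SE 0.0871, adjusted p = 8.41e-15, edgeR's quasi-likelihood test), and reads of the transgene and of the plant's own gene cannot be told apart in these counts. The mutant libraries held 23936296 and 30105517 counts and the wild-type libraries 23436163 and 24245300, of which 8.57% to 8.69% fell in the single-intron genes. Leaf genes (RBCS1A, LHCB1.1, CAB3) and root genes (PYK10, CASP1, PIN2) were present in every library. Of these 6, CAB3 was lower in the mutant (log2 fold change -0.32, SE 0.0783, edgeR adjusted p = 0.0261), and its part in the lower call of the photosynthesis gene PSAF was not tested. The seed storage gene SESA1 and the pollen genes VGD1 and TIP1;3 were at 0 counts. The seed storage gene SESA4 had 0 and 1 counts in the mutant libraries and 0 and 2 in the wild-type libraries. The pollen gene AT5G45880 had 0 and 2 counts in the mutant libraries and 0 and 0 in the wild-type libraries. The seed storage gene CRA1 had 2.55 and 1.73 CPM, a gene's counts relative to the total of its library, in the mutant libraries, against 0.725 and 4.66 in the wild-type libraries. In whole seedlings, fewer cells of a type and less RNA per cell cannot be told apart. Whether replicate libraries were made from separate seedling batches is not given in the labels, and the p-values thus measure the spread between samples that may be technical.

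The score of an intron times its length was a whole multiple of a fixed step in each column, within 0.02, for at least 99.98% of the scores above 0. A score of 12.7 and 10.1 in the mutant columns and of 12.9 and 12.5 in the wild-type columns thus stands for a mean depth of 1 read over the whole intron. The score is a level of intron coverage per base and is given here beside this depth. The columns are named by genotype and number and not by library.

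Most of these introns had little or no coverage. Of the 3349, 1580 (47.2%) were listed at 0 in all 4 columns, 787 (23.5%) were above 0 in all 4, and 292 (8.72%) had a mean depth of at least 10 reads. The score was above 0 for 35.3% and 42.2% of them in the mutant columns, and for 36.7% and 36.2% in the wild-type columns. Among those above 0, the median depth was 4.29 and 4.10 reads in the mutant columns, against 3.55 and 3.73 reads in the wild-type columns. The 2 mutant columns thus stood on either side of the wild-type columns in the share above 0. The zeros went with low expression, taken as CPM per kilobase of counted exon averaged over the libraries. Of 1732 introns in genes at a level under 1, 81.9% were at 0 in all 4 columns. At a level of 10 to 30 this held for 4.96% of 423 introns, and at 30 to 100 for 2.4% of 208. A score of 0 thus cannot by itself be read as complete removal of the intron.

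Introns of single-intron genes were covered more often than introns of other genes. Among introns of genes with 2 or more listed, 26.4% and 34.2% were above 0 in the mutant columns and 28.5% and 27.4% in the wild-type columns, and 3.38% had a mean depth of at least 10 reads. The difference was 7.96 to 8.92 percentage points and had the same sign in all 4 columns. An exact two-sided sign-flip permutation test over the 4 columns gave p = 0.125, the smallest that 4 columns allow. The 4 columns score the same introns, so this test does not measure the spread between introns and decides nothing about it. Just inside the length limit, at 450 to 499 bases, 70.5% of 122 introns were above 0 in some column, and just outside it, at 500 to 549 bases, 73.6% of 91 were.

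Within classes of expression, the difference was wider than this above a gene level of 1 and narrower below it. Gene level is given as CPM divided by the counted exon length in kilobases, averaged over the libraries, and the comparison was limited to introns of 80 to 99 bases with GT-AG or GC-AG ends. At a gene level of 10 to 30, 71.8% and 80% of 85 single-intron genes' introns were above 0 in the mutant columns and 80% and 76.5% in the wild-type columns. Of 8850 introns of the other genes at that level, 28.5% and 38.3% were above 0 in the mutant columns and 31.3% and 29.8% in the wild-type columns. At a level of 30 to 100, the 55 introns had a median depth of 10.6 and 12 reads in the mutant columns and of 14.5 and 11.4 reads in the wild-type columns, whereas the median of 3962 other introns was 0 in each column. Above a level of 1, the difference was 19.9 to 54.9 percentage points in every class and column, and below a level of 1 it was 1.3 to 4.85 points. The sign-flip test gave the same p of 0.125 in each class, with the same limits. The difference was thus present in both genotypes.

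**Figure D1:**
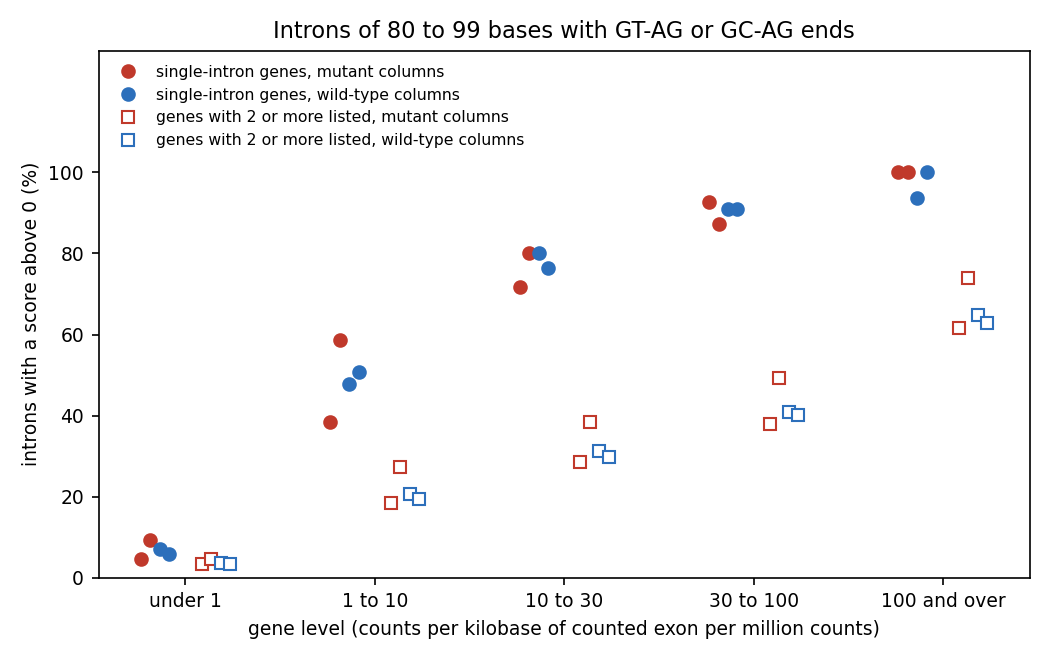
Share of introns of 80 to 99 bases with a score above 0 (y axis, percent) by gene level (x axis), with a point for each of the 4 score columns; filled circles are single-intron genes and open squares are genes with 2 or more listed introns, red for mutant columns and blue for wild-type columns. At a gene level of 10 to 30 the filled circles lie between 71.8% and 80% and the open squares between 28.5% and 38.3%.

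Coverage also differed by place and kind of gene. Of the introns in the 5′ untranslated part 76.1% were above 0 in some column, of those in the 3′ untranslated part 66.7%, of those in coding sequence 52.9% and of those in noncoding transcripts 30.9%. The median gene levels of these places ran in the same order, at 7.15, 3.01, 0.706 and 0, so place and expression were not separated here. By the words of the annotated product, all 11 introns of the histone class were above 0 and 7 had a mean depth of at least 10. That class holds the histone H2A genes HTA2, HTA6, HTA7 and HTA10, among others, and the gene of highest level in it was HTA6, with an intron at 277 and 96.7 in the mutant columns and 166 and 329 in the wild-type columns. Of 34 ribosomal protein introns 31 (91.2%) were above 0, and of 116 F-box introns 33 (28.4%) were. Median gene levels differed too, at 43.3 in the histone class, 22.4 in the ribosomal protein class and 0 in the F-box class.

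The highest scores came from few genes. A score of 1000 was reached by 33 and 30 introns in the mutant columns, against 25 and 30 in the wild-type columns. The GRP7 intron scored 14065 and 17045 in the mutant columns, against 22534 and 24453 in the wild-type columns, a depth of 1111 to 1957 reads. The GRP8 intron scored 10383 and 12759 in the mutant columns, against 13143 and 14373 in the wild-type columns. For both genes the mutant columns lay below the wild-type columns.

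AT1G24996 and AT1G55990 came next. AT1G24996, an uncharacterized protein with an intron of 441 bases, scored 8064 and 9707 in the mutant columns, against 11205 and 10561 in the wild-type columns. Its exons had 0 and 1 counts in the mutant libraries, against 1 and 1 in the wild-type libraries, so this coverage stood beside almost no exon counts. AT1G55990 scored 5782 and 4984 in the mutant columns, against 4167 and 3195 in the wild-type columns. AT2G36320, a zinc finger protein of the A20/AN1 family with its intron in the 5′ untranslated part, scored 5185 and 3576 in the mutant columns, against 4393 and 4310 in the wild-type columns, and the genotypes overlapped.

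Set against the level of the gene, these introns also stood high. Among 714 single-intron genes with a gene level of at least 10, the score divided by the gene level had a median of 2.15 and a 99th percentile of 65.3. The ratio was 86.0 for GRP8, 83.9 for GRP7, 78.0 for AT2G15880 and 68.8 for AT1G55990. Highly expressed photosynthesis genes had introns of high score and low ratio. LHCB2.1 scored 3962 and 3342 in the mutant columns, against 2574 and 2496 in the wild-type columns, with a ratio of 1.08. PSAF, the subunit of photosystem I that docks plastocyanin, scored 2108 and 2042 in the mutant columns, against 2889 and 2610 in the wild-type columns, with a ratio of 0.819. The ratio was 0.996 for LHCB2.2, at 2665 and 3056 in the mutant columns and 3356 and 2566 in the wild-type columns, and 0.481 for LHCB4.1, at 1647 and 1193 in the mutant columns and 1344 and 1072 in the wild-type columns. LHCA3, an antenna protein of photosystem I with 4094 and 4224 CPM in the mutant libraries and 4731 and 4809 CPM in the wild-type libraries, had an intron of 73 bases that was at 0 in all 4 columns and is not in the RefSeq annotation. TIP2, a water channel of the vacuolar membrane, scored 3281 and 2901 in the mutant columns and 2526 and 2975 in the wild-type columns. None of these 4 introns separated the genotypes. The genes LHCB2.1 and LHCB2.2 are close copies, and how reads of such copies were assigned is not given in the sources used here.

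**Figure D2:**
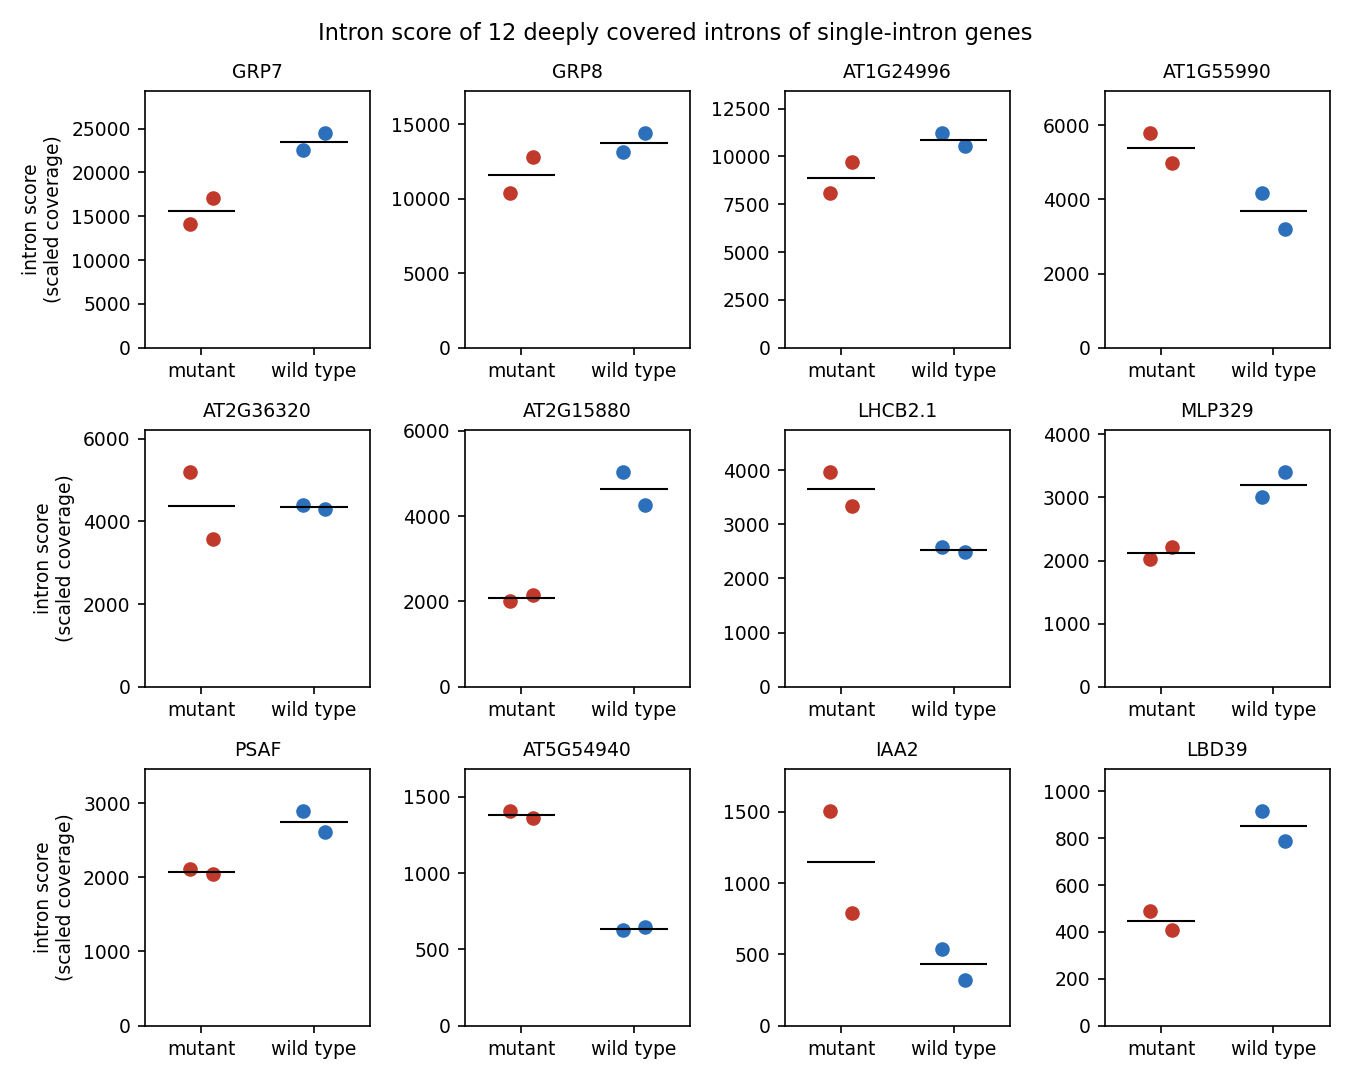
Intron score (y axis, scaled read coverage, each panel from 0) of 12 deeply covered introns of single-intron genes in the 2 mutant columns (red, left) and the 2 wild-type columns (blue, right), with a bar at each mean. GRP7, GRP8, AT1G24996, AT2G15880, MLP329, PSAF and LBD39 lie lower in the mutant columns, AT1G55990, LHCB2.1, AT5G54940 and IAA2 lie higher, and AT2G36320 overlaps.

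The first comparison asked whether intron coverage differed between mutant and wild type. The introns of AT2G15880 and GRP7 were lower in the mutant and no single-intron gene's intron was called higher. Tested were the 1703 with a mean score of at least 1, on log2(score + 1) with limma over all 38693 introns that passed this filter. Of all introns tested, 0.00775% were called, 0.00258% higher and 0.00517% lower. The AT2G15880 intron averaged 2084 ± 100.3 in the mutant columns and 4638 ± 546 in the wild-type columns (SD, n = 2 each), a difference of -1.15 on the log2 scale (SE 0.103, limma adjusted p = 0.00467). The GRP7 intron averaged 15555 ± 2108 in the mutant columns and 23494 ± 1357 in the wild-type columns (SD, n = 2 each), a difference of -0.60 (SE 0.0681, limma adjusted p = 0.0331).

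Neither call held under most alternatives, while both differences kept their sign under all 10. The call of AT2G15880 was lost under 8 of them, with limma adjusted p from 0.0724 to 0.624, and was kept with a pseudocount of 12 (1.67e-08) and with a minimum mean score of 120 (0.0343). The call of GRP7 was likewise lost under 8, with adjusted p from 0.140 to 0.727, and was kept with a pseudocount of 12 (8.38e-17) and with centred columns (0.00742). Leaving out any of the 4 columns ended both calls. Without mutant column 1, 199 single-intron genes' introns were called, all higher in the mutant, among 6367 of all introns tested (16.5%). Without any other column 0 were. At an unadjusted p under 0.05 the test with all 4 columns had 67 of the 1703 introns and 1155 of all 38693.

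Over the 1703 introns the difference had a median of 0.13 on the log2 scale, against 0.21 over all introns tested. With each column centred on its own median the values were 0.002 and 0.08, since centring moves every difference by the same amount. Without mutant column 1 the median was 0.25 for the single-intron genes' introns, against 0.12 for all introns tested, and without mutant column 2 both were 0. Of the 1703, 268 (15.7%) had both mutant columns above both wild-type columns, where 13.0% of all introns tested did, and 212 (12.4%) had both below, where 10.3% did. At a mean depth of at least 10 reads, 50 of 292 (17.1%) were higher and 56 (19.2%) lower, where 18.8% and 17.0% of all introns at that depth were. Both shares stood near those of the whole table.

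Differences between columns of a genotype and between genotypes both narrowed with depth. A difference between means of 2 columns is by itself narrower than one between single columns, so the values are a description. Below a mean depth of 1 read, the median absolute difference of log2(score + 1) was 2.62 between the mutant columns, 1.79 between the wild-type columns and 1.86 between the genotype means. At 10 to 30 reads these values were 0.60, 0.68 and 0.50. At 100 reads and more they were 0.26, 0.23 and 0.24.

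**Figure D3:**
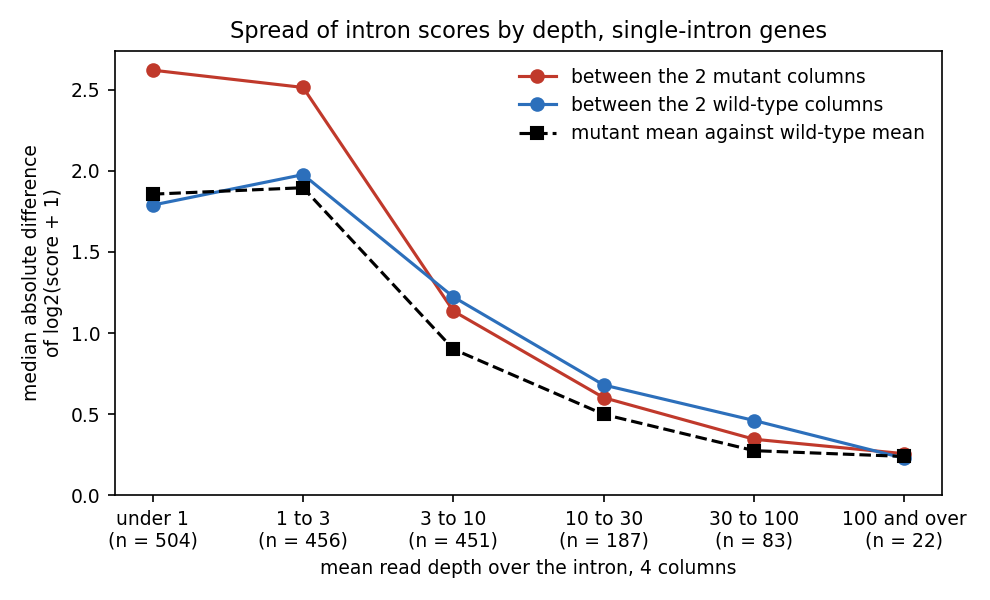
Median absolute difference of log2(score + 1) (y axis) by mean read depth over the intron (x axis, with the number of introns) for the 1703 tested introns of single-intron genes: between the 2 mutant columns (red), between the 2 wild-type columns (blue) and between genotype means (black, dashed). All 3 lines fall with depth, to 0.26, 0.23 and 0.24 at 100 reads and more.

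Deeply covered introns that differed without passing the test were found in both directions. AT5G54940, a SUI1 family translation initiation factor with its intron in the 5′ untranslated part, scored 1404 and 1358 in the mutant columns, against 627 and 644 in the wild-type columns (difference 1.12, SE 0.201). IAA2 scored 1503 and 792 in the mutant columns, against 536 and 324 in the wild-type columns (difference 1.39, SE 0.353). LBD39 scored 489 and 408 in the mutant columns, against 915 and 787 in the wild-type columns (difference -0.92, SE 0.274). In all 3 the genotypes did not overlap, and the limma adjusted p was 0.778 for each. Their genes did not pass the test of counts either, with edgeR adjusted p of 0.0574, 0.0760 and 0.593. IAA2 had 145 and 142 CPM in the mutant libraries, against 120.5 and 121 in the wild-type libraries, and AT5G54940 had 156 and 221 CPM in the mutant libraries, against 149.8 and 137 in the wild-type libraries.

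MLP329, a protein of the major latex protein family, scored 2025 and 2210 in the mutant columns, against 3005 and 3397 in the wild-type columns (difference -0.59, SE 0.109). PHOS34, named for a phosphorylated protein of the universal stress family, has its intron in the 3′ untranslated part and scored 17.1 and 60.3 in the mutant columns, against 280 and 197 in the wild-type columns. FBX2, an F-box protein, scored 148 and 281 in the mutant columns, against 56.3 and 14.3 in the wild-type columns. These 3 were apart between genotypes as well, with a limma adjusted p of 0.778 each.

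The largest differences on the log2 scale belonged to introns listed at 0 in a genotype. The AT1G63530 intron scored 128 and 228 in the mutant columns and was listed at 0 in both wild-type columns. Those of AT5G50665, AT3G04140, AT1G65481, AT1G75945 and MYB15, a MYB transcription factor, scored 15.6 to 175 in the mutant columns and were also listed at 0 in the wild-type columns. In the opposite direction, AT3G11100 was listed at 0 in both mutant columns, against 25.8 and 62.3 in the wild-type columns. SCL3, a GRAS protein of gibberellin signalling, scored 0 and 0.378 in the mutant columns, against 75.3 and 58.4 in the wild-type columns. AT1G01970, AT3G14260, AT3G17717 and PLAT3 had mutant scores of 0 to 0.220 and wild-type scores of 25 to 62.7.

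For none of these 12 was the test passed, with a limma adjusted p of 0.778 each, and the highest mean depth was 8.15 reads. Of their genes, AT1G63530 and AT1G75945 passed the test of counts and AT5G50665 and PLAT3 had too few counts to be tested. AT3G11100, for example, had 25.9 and 29.8 CPM in the mutant libraries, against 30.7 and 28.4 in the wild-type libraries. The authors' deposited table of differences of at least 4 on the log2 scale holds 86 of the single-intron genes' introns, 52 higher in the mutant (1.55%, against 1.79% of all introns) and 34 lower (1.02%, against 1.16%). These 86 had a median mean depth of 1.7 reads and at most 8.15, and 58 were at 0 in both columns of a genotype.

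**Figure D4:**
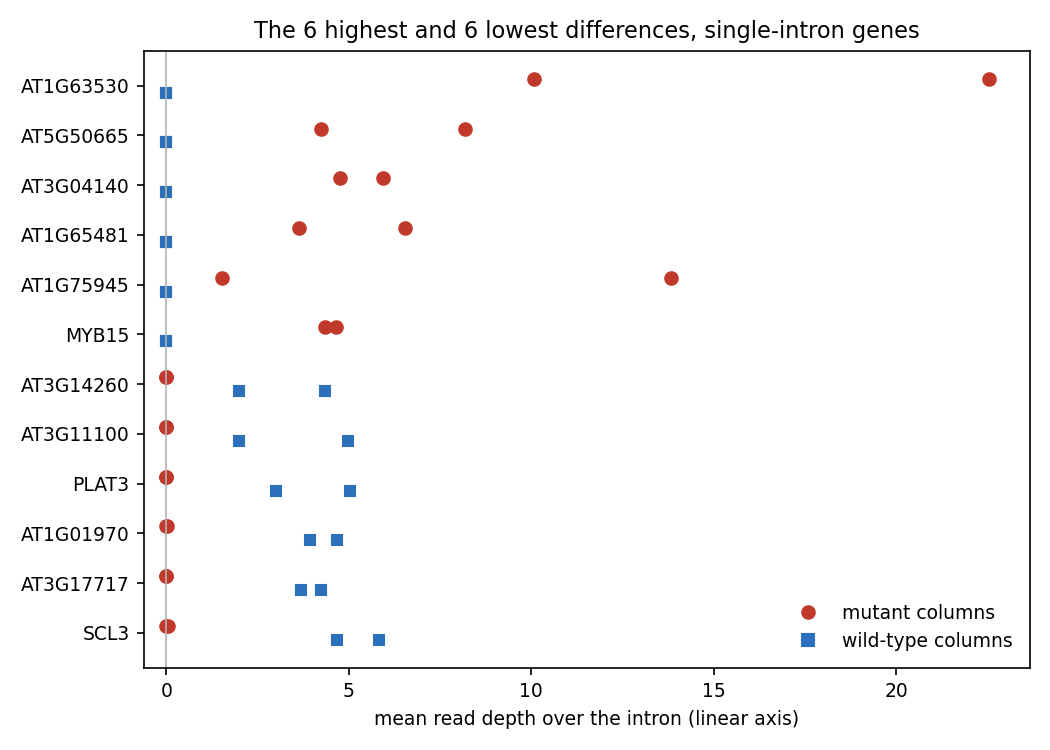
Mean read depth over the intron (x axis, linear) in the mutant columns (red circles) and wild-type columns (blue squares) for the 6 highest and 6 lowest differences among introns of single-intron genes with a mean score of at least 4 and genotypes that did not overlap. One genotype sits at or next to 0 in each, and most depths of the other are under 10 reads.

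The second comparison took the intron relative to its gene. No single-intron gene's intron was called on this ratio, 0 of 1413, as were 0.0% of all 36798 introns tested with limma. The test gave wide SEs for some deep introns of highly expressed genes. For LHCB2.1 the SE was 1.404 on the ratio, against 0.1028 on the score, and for PSAF 1.499 against 0.1096. The spread between columns was the same on the ratio as on the score, since a genotype's columns shared its gene level. The wider SE came from the variance trend, which followed the mean ratio and not the mean score. For such introns the lack of a call does not show that the ratio was unchanged. At an unadjusted p under 0.05 there were 88 of the 1413 and 1796 of the 36798, and in the alternative tests with all 4 columns, those joining columns to libraries in each of 4 orders included, 0 of the single-intron genes' introns were called as well. The median ratio difference was 0.04 on the log2 scale, against 0.18 over all introns tested, an order that turned without mutant column 1 (0.23 against 0.16) and without mutant column 2 (-0.048 against -0.12). Since the score columns name no library, the gene level was the mean of each genotype's libraries. Without mutant column 1, 98 introns were called, 92 of them higher, among 5882 of all introns (15.98%). Without mutant column 2, 44 were called, 42 of them higher, among 3517 of all (9.56%). Without either wild-type column 0 were called.

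Both introns called lower in the mutant had genes that were called lower too. The ratio difference was -0.24 (SE 0.217) for AT2G15880 and -0.14 (SE 0.208) for GRP7, against score differences of -1.15 and -0.60. The SEs on the ratio leave out the spread of the gene level between libraries, since a genotype's mean level was used for both of its columns. The extremes of the ratio belonged to introns of low depth. SCL3 had a ratio difference of -6.06 (SE 1.37) and AT3G04140 of 5.59 (SE 1.16), neither past the test (limma adjusted p = 0.811 each). For AT1G63530 the ratio difference was 3.52 (SE 1.44), against a score difference of 7.42. The other high ratios were those of AT5G35100, a cyclophilin-like protein, AT5G56520 and AT1G49310, at 5.78, 5.73 and 5.35, and the other low ratios those of AT3G17717, AT1G01970 and AT4G23770, at -5.68, -5.62 and -5.38. Each had a limma adjusted p of 0.811 and a mean depth of at most 5.25 reads.

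The third comparison was of the genes themselves. Of 1833 single-intron genes tested, 69 passed edgeR's quasi-likelihood test, 49 higher and 20 lower in the mutant. Of all 20483 genes tested, 3.01% passed, 1.68% higher and 1.33% lower. With library totals as the only scaling the split was 68 higher and 14 lower, and that of all genes tested was 507 higher and 194 lower. Of the 69, 66 had an adjusted p in DESeq2 and 49 were called by it, and 69 were called with RLE size factors. The number called varied with the library left out, among these genes and among all genes tested. All 69 kept their direction in each of the 8 alternatives, and 20 were called in every one.

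AT1G63530 had 122 and 91.7 CPM in the mutant libraries, against 4.8 and 5.59 in the wild-type libraries (log2 fold change 4.36, SE 0.143, edgeR adjusted p = 1.14e-14). AT1G75945, another uncharacterized protein, had 92 and 137 counts in the mutant libraries, against 0 and 2 in the wild-type libraries (edgeR adjusted p = 5.52e-06). AT5G55150, an F-box protein of the SKIP23 kind, had 36 and 59 counts in the mutant libraries, against 3 and 1 in the wild-type libraries (edgeR adjusted p = 0.00396). All 3 were higher in both mutant libraries than in either wild-type library, and their introns were too.

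MLP168, of the same family as MLP329, had 3.0 and 3.16 CPM in the mutant libraries, against 0.562 and 0.167 in the wild-type libraries (log2 fold change 3.07, SE 0.535, edgeR adjusted p = 0.00205). Its intron was listed at 0 in all 4 columns. Of the lower genes, the noncoding RNA gene AT1G06957 had 0 and 0 counts in the mutant libraries, against 18 and 23 in the wild-type libraries (edgeR adjusted p = 0.00961). AT4G25790, of the cysteine-rich secretory protein family, had 0.206 and 0.296 CPM in the mutant libraries, against 1.9 and 1.63 in the wild-type libraries (log2 fold change -2.77, SE 0.649, edgeR adjusted p = 0.0208). AT5G49015, an uncharacterized protein, had 0.905 and 1.61 CPM in the mutant libraries, against 3.25 and 3.8 in the wild-type libraries (log2 fold change -1.46, SE 0.397, edgeR adjusted p = 0.0491). The introns of AT4G25790 and AT5G49015 had a mean depth of 0 and 0.275 reads. DESeq2 gave no adjusted p for AT5G55150, AT1G06957 and AT4G25790, and the call of AT5G49015 was lost with it (adjusted p = 0.0704). Without mutant replicate 1 the calls of AT4G25790 and AT5G49015 were lost (edgeR adjusted p = 0.0548 and 0.145), and without either wild-type replicate those of all 3 lower genes were (0.0920 to 0.345). That of AT5G55150 was lost without wild-type replicate 2 (0.0646).

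AT2G15880 had 78.7 and 80.1 CPM in the mutant libraries, against 150 and 160 in the wild-type libraries (log2 fold change -0.97, SE 0.0789, edgeR adjusted p = 1.05e-07). GRP7 had 189 and 266 CPM in the mutant libraries, against 315 and 318 in the wild-type libraries (log2 fold change -0.47, SE 0.105, edgeR adjusted p = 0.0147). The call of GRP7 was lost with DESeq2 (adjusted p = 0.461) and without wild-type replicate 1 (0.156) or 2 (0.0878). Its log2 fold change was -0.25 without mutant replicate 1 and -0.74 without mutant replicate 3. GRP8 did not pass, with 129 and 184 CPM in the mutant libraries, against 170 and 169 in the wild-type libraries.

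By product class, the heat shock class had 4 of 20 tested genes higher and 0 lower. HSP70 (AT3G12580), a heat-inducible chaperone, had 80.7 and 61.9 CPM in the mutant libraries, against 21.8 and 32.4 in the wild-type libraries (log2 fold change 1.39, SE 0.143, edgeR adjusted p = 3.94e-06). Hsp70-2 had 20.1 and 16.7 CPM in the mutant libraries, against 7.44 and 12.5 in the wild-type libraries (log2 fold change 0.88, SE 0.192, edgeR adjusted p = 0.0137). The others were the small heat shock protein AT5G47590 and the heat shock factor HSFB2A. AT5G51440, an HSP20-like chaperone that the class's wording leaves out, had 8.64 and 7.97 CPM in the mutant libraries, against 3.63 and 2.59 in the wild-type libraries (log2 fold change 1.41, SE 0.246, edgeR adjusted p = 0.00201). HSP70 proteins are near-identical over long stretches, so reads could be shared between their genes. The constitutive HSC70-1, with 2067 and 1837 CPM in the mutant libraries against 1833 and 1778 in the wild-type libraries, did not pass. The introns of these chaperone genes had little coverage, with mean depths of 0.422 reads for HSP70, 0 for Hsp70-2 and 1.15 for HSC70-1.

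Of 54 cytochrome P450 genes tested, 4 were higher and 2 lower. The higher genes were CYP79F1 and CYP83A1, enzymes of aliphatic glucosinolate synthesis, PAD3, the last enzyme of camalexin synthesis, and AT5G08250. The lower genes were CYP76C6 and CYP76C1. CYP76C6 had 1.32 and 1.78 CPM in the mutant libraries, against 5.19 and 4.51 in the wild-type libraries (log2 fold change -1.64, SE 0.33, edgeR adjusted p = 0.00742). In the lipid transfer class 2 of 15 genes were higher and 0 lower. LTP2 had 207 and 197 CPM in the mutant libraries, against 76.9 and 83.3 in the wild-type libraries (log2 fold change 1.33, SE 0.0790, edgeR adjusted p = 4.7e-10), and LTP1 (LP1) had 736 and 808 CPM in the mutant libraries, against 590 and 590 in the wild-type libraries.

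Of 30 ribosomal protein genes 3 were higher and 0 lower, with AT4G12600 at 75.6 and 59.0 CPM in the mutant libraries, against 52.7 and 49.1 in the wild-type libraries. Of 77 transcription factor genes 0 were higher and 2 lower, the light-responsive GATA2 and the ethylene-responsive EBP. The class goes by words in the product and leaves out other transcription factor genes. Among these, HSFB2A and bHLH39, an iron-deficiency regulator, were higher (log2 fold change 0.73 and 0.93, edgeR adjusted p = 0.0325 and 0.0114). The MYB-like MYBL2 was lower (log2 fold change -0.46, edgeR adjusted p = 0.00177). The call of GATA2 was lost with DESeq2 (adjusted p = 0.0947), and DESeq2 likewise did not call AT4G12600, AT1G35710, PAD3, HSFB2A or IAA1. EBP had 106 and 87.2 CPM in the mutant libraries, against 148 and 133 in the wild-type libraries (log2 fold change -0.54, SE 0.0922, edgeR adjusted p = 0.00165). Of 86 kinase genes 1 was higher, AT1G35710, with 0 lower. Of 19 genes of RNA-binding or glycine-rich proteins, 1 was higher, AT1G55990, and 1 lower, GRP7. Among 61 zinc finger or RING, 43 glycosyltransferase, 29 pentatricopeptide and 11 histone genes, 0 passed in either direction.

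Of the genes with the highest level in their class, GRP7, LP1, EBP, PSAF and the ribosomal protein gene EMB2296 passed the test of counts. EMB2296 had 441 and 424 CPM in the mutant libraries, against 362 and 360.1 in the wild-type libraries (log2 fold change 0.26, SE 0.0697, edgeR adjusted p = 0.0463), and its intron scores overlapped between genotypes. CYP83B1, an enzyme of indole glucosinolate synthesis, did not pass, with an intron at 279.8 and 162 in the mutant columns, against 100.4 and 105 in the wild-type columns (limma adjusted p = 0.778). Nor did HSC70-1, HTA6, COL4, UGT88A1, AT1G30200, AT3G29240 and SKP1, a subunit of SCF ubiquitin ligases that the word kinase in its product puts in the kinase class. The genotypes overlapped in the intron scores of these 7.

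Most called genes, 33 higher and 15 lower of 1352 tested, had products outside these classes. ECS1, a cell wall protein linked to resistance to a bacterial pathogen, had 93.6 and 56.2 CPM in the mutant libraries, against 25.7 and 29.3 in the wild-type libraries (log2 fold change 1.44, SE 0.157, edgeR adjusted p = 8.3e-06). The chitinase gene CHI had 66.8 and 72.0 CPM in the mutant libraries, against 41.3 and 43.5 in the wild-type libraries (edgeR adjusted p = 8.16e-05). LEA4-5, a late embryogenesis abundant protein that accumulates under water deficit, had 4.2 and 5.53 CPM in the mutant libraries, against 1.56 and 1.25 in the wild-type libraries (edgeR adjusted p = 0.00393). These 3 were among the 18 higher genes that were called in all 8 alternatives.

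The 2 lower genes called in all 8 alternatives were AT2G15880 and WCRKC1, a thioredoxin-like protein. WCRKC1 had 19.3 and 18.1 CPM in the mutant libraries, against 33.1 and 33.6 in the wild-type libraries (log2 fold change -0.83, SE 0.115, edgeR adjusted p = 0.000183). Its intron scored 164 and 130 in the mutant columns, against 239 and 270 in the wild-type columns, and did not pass the test (limma adjusted p = 0.778). MYBL2, a MYB-like repressor of flavonoid synthesis, had 80.3 and 80.7 CPM in the mutant libraries, against 110.5 and 111 in the wild-type libraries (edgeR adjusted p = 0.00177), and its intron scores overlapped between genotypes. IAA1, a close relative of IAA2, had 16 and 18.4 CPM in the mutant libraries, against 11.5 and 11.2 in the wild-type libraries (edgeR adjusted p = 0.0338), with an intron at 325 and 78.8 in the mutant columns and 20.2 and 87.5 in the wild-type columns.

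Introns of genes called higher mostly had score differences above 0, and introns of genes called lower mostly had differences below 0. Of the 49 genes called higher, 42 had a tested intron, with a median intron difference of 1.01 on the log2 scale and 34 of 42 above 0. Of the 20 genes called lower, 19 had a tested intron, with a median difference of -0.59 and 15 of 19 below 0. Over all 1703 tested introns the median difference was 0.13. At a mean depth of at least 10 reads, 7 of 9 introns of higher genes were above 0, and 7 of 11 introns of lower genes were below 0. The medians there were narrower, at 0.38 and -0.44, and 151 of all 292 introns at that depth were above 0. Across 286 single-intron genes at that depth, intron difference and gene log2 fold change had a Pearson r of 0.457 and a Spearman rho of 0.382. Across 1253 genes at lower depth r was 0.242 and rho 0.177. These correlations are across genes, which are not independent replicates, and both quantities of a gene come from the same libraries.

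**Figure D5:**
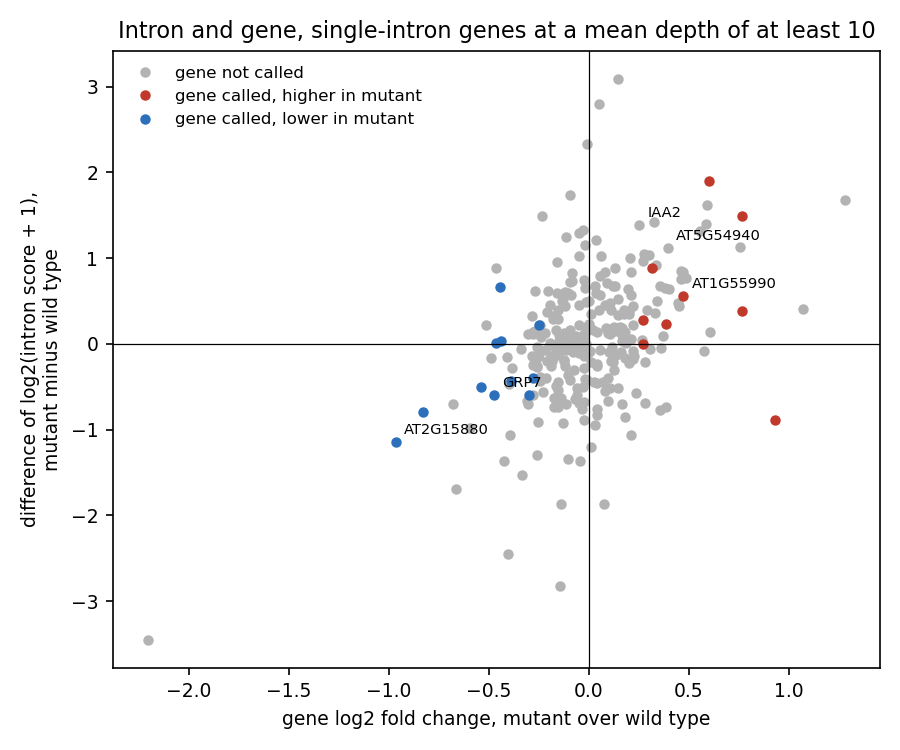
Difference of log2(intron score + 1), mutant minus wild type (y axis), against the log2 fold change of the gene, mutant over wild type (x axis), for 286 single-intron genes with a mean intron depth of at least 10 reads; red points are genes called higher in the mutant by edgeR, blue points genes called lower and grey points the rest. AT2G15880 and GRP7 lie low on both axes, and AT1G55990 lies above 0 on both.

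AT1G55990 had the highest mean depth, 382 reads, among introns of genes called higher. Its gene had 35.8 and 28.5 CPM in the mutant libraries, against 24.3 and 22.0 in the wild-type libraries (log2 fold change 0.47, SE 0.125, edgeR adjusted p = 0.0432), a call lost with DESeq2 (adjusted p = 0.0926), without mutant replicate 1 (0.251) and without either wild-type replicate (0.175 and 0.357). The intron difference was 0.56 (SE 0.115, limma adjusted p = 0.778). MLP329 and PSAF had introns of lower score in both mutant columns and genes called lower, with log2 fold changes of -0.30 (SE 0.0758, edgeR adjusted p = 0.0348) and -0.28 (SE 0.0639, edgeR adjusted p = 0.0193). LHCB2.1 passed neither test, with an intron difference of 0.52 (SE 0.103, limma adjusted p = 0.778) and 3579 and 4137 CPM in the mutant libraries, against 4192 and 4244 in the wild-type libraries.

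The authors' deposited table of retained-intron events, made with rMATS, holds 4690 events and none of them at an intron of the score table. Of the 3348 introns of single-intron genes and the 72980 of other genes, 0 overlapped an exon of their own gene in the RefSeq annotation. Introns that an exon annotated there spans were thus not among those scored. It has 317 events in 220 of the single-intron genes, at other introns than the ones scored. A false discovery rate under 0.05 was given in the authors' deposited table for 46 of these 317 (14.5%), against 774 of all 4690 (16.5%). That table names its groups by number and not by genotype, so no direction is given.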

How the data were processed

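The gene counts were made by the authors with featureCounts 2.0.1, run in paired mode without a strand option on the exons of Ensembl Plants release 49 (TAIR10), per the file headers. The submitters' processing notes also name HISAT2 2.2.0, STAR 2.7.9a and DESeq2 1.30.1, without their roles. The intron scores were deposited by the authors as a signal, and their values show read coverage per base times 1 factor per column. The log2 means and differences deposited by the authors are of log2(score + 1). Another 8 columns, which the files hold for single samples, were not used. The authors' deposited rMATS table gives p-values and false discovery rates per event and an inclusion-level difference, a score whose direction is not given. Exon lengths are the authors', per the file headers.

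Scores above 0 could not be turned into whole reads, so they were tested as log2(score + 1), with a mean score of at least 1, by limma 3.58.1 with a trended variance. Gene counts were tested with edgeR 4.0.16 (quasi-likelihood, TMM, filterByExpr) and, as an alternative, DESeq2 1.42.0, in R 4.3.3. All p-values were adjusted over all features tested by Benjamini-Hochberg, with a threshold of 0.05, and CPM used TMM library sizes except for marker genes. The steps were tested on simulated data. Sequences and annotation came from RefSeq (TAIR10.1). Score columns carry no library number, so the intron relative to its gene used the mean gene level of each genotype.

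Members and gene lists were chosen with earlier results of these data known. Named introns were the 6 highest and 6 lowest score differences at a mean score of at least 4 with genotypes that did not overlap, the 4 highest and 4 lowest ratio differences under the same conditions, the 6 highest mean scores and those of the 6 genes with the highest CPM. Named genes were the 4 highest and 4 lowest fold changes among called genes, in each product class the gene with the highest level and the called gene with the largest change, GRP7, GRP8 and the cytosolic HSP70 genes among the members. Products were classed by words of their annotation. Other introns and genes, those at a mean depth of at least 10 and those that make up counts of 5 or fewer among them, and LHCB2.1, IAA2 and LBD39 among the printed sequences, were named after their values were seen.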

Additional observations from a re-analysis of the deposited data

How the results depend on the processing

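Among the single-intron genes' introns, the number called on the score was 0 with introns above 0 in at least 1 column, with a mean score of at least 4 and with a pseudocount of 0.1, and 1 with centred columns. It was also 1 for introns under 200 bases, for those that are the only annotated intron of their gene, and for a mean score of at least 120, a limit chosen after seeing the data. Leaving out a score column gave 0 to 199 calls and a median difference of 0 to 0.25, and for the ratio 0 to 98 calls and a median of -0.048 to 0.23. The median difference was 0.00198 with centred columns and 0.0092 at a mean score of at least 120. Genes called numbered 124 with no filter on low counts, 41 for introns under 200 bases, and 23 to 191 with a library left out. Some single differences, none of them called, changed sign when a column was left out. The log2 differences ran from -0.28 to 0.25 for AT2G36320, -1.26 to 0.25 for HTA6 and -5.01 to 1.68 for SKP1. They ran from -0.65 to 0.29 for EMB2296, -0.73 to 0.0087 for COL4 and -0.59 to 0.68 for UGT88A1 (-0.090 with centred columns). Those of AT1G30200 ran from -0.44 to 0.039 and those of AT3G29240 from -0.21 to 0.90. For LHCB2.2 they ran from -0.23 to 0.15 and for LHCB4.1 from -0.0090 to 0.46. The signs for HSC70-1 and MYBL2 turned as well without mutant column 1. The cause was not tested. No paired analysis was possible because the genotypes share only 1 replicate number and the score columns carry none. The planned test of recovered reads was not run, since coverage is not a number of reads. A genotype left with 1 column was assumed to vary like the other. Below 10 reads the score is limited by depth, and 58 of the 86 largest differences had a genotype at 0.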
